A study of Homo sapiens with 6 samples.

Results

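Peaks of DNA:RNA hybrids were examined over 10 genes known from amyotrophic lateral sclerosis (ALS) or frontotemporal dementia (FTD) that act in autophagy, ubiquitin handling or the lysosome. They are C9orf72, TBK1, OPTN, SQSTM1, VCP, UBQLN2, CCNF, GRN, TMEM106B and FIG4. They were taken by name from the 20037 protein-coding genes of RefSeq GRCh38.p14, with no threshold on a measured value. DNA:RNA hybrid immunoprecipitation sequencing (DRIP-seq) was run on SH-SY5Y, an established human neuroblastoma line, in 6 samples. Before the pulldown with the hybrid-binding antibody S9.6, nucleic acids were cut with 5 restriction enzymes (BsrGI, EcoRI, HindIII, SspI and XbaI). Cells of 3 samples carried the lentiviral short hairpin shT2 and cells of the other 3 carried shNC3, both kept as puromycin-selected stable cultures. The series concerns TDP-43, encoded by TARDBP. No label names the hairpin against it, so shT2 is taken for the knockdown and shNC3 for the negative control on the strength of their names, and every difference is shT2 relative to shNC3. Each condition rests on 1 hairpin, and no label says that its samples came from separate infections, so the p-values reflect the spread among these 6 samples alone, and that spread may be technical.

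Autophagy wraps cell material in a double membrane that fuses with the lysosome, where it is degraded. Receptors such as optineurin (OPTN) and p62 (SQSTM1) tie ubiquitin-marked cargo to that membrane and are phosphorylated by the kinase TBK1, while VCP and UBQLN2 bring ubiquitin-marked proteins to the proteasome or to autophagy. R-loops, the structures that DRIP-seq reads, form where a nascent RNA pairs with its DNA template, often near gene starts and ends and in G-rich transcribed DNA.

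The quantity used throughout is the length of a gene that lay under called peaks. Per sample, the covered base pairs were counted in the gene's span plus 2 kb on each side, in a start window and an end window (2 kb to either side of the first and last base), and in the interior, which is the span more than 2 kb from both ends. Before the test, each sample's lengths were scaled so that all samples had the same total under peaks, and log2 differences are on the scale of log2(scaled bp + 500), which understates the change of genes with short coverage. Of the 10 members, 7 had a peak in at least 3 samples and were tested among 11771 genes. A gene was called when the adjusted p of limma (Benjamini-Hochberg over all genes tested) was under 0.05. In DNA from many cells, fewer cells with a hybrid and fewer or shorter hybrids per cell cannot be told apart.

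The lists behind these lengths held 49068 to 50971 peaks for shT2 and 42717 to 45390 for shNC3, covering 72.7 to 78.2 Mb and 62.9 to 70.5 Mb. The genome background recovered from the fold and p of each peak was higher for shT2, at 2.995 to 3.02 fragments per base against 1.652 to 1.79. Reads were not counted and the control of the peak calling is not known. Whether the shT2 libraries were deeper was therefore not tested. Peak length over TARDBP does not check the knockdown, since neither its RNA nor its protein was measured. Among 10 noradrenergic neuroblastoma markers, 9 carried a peak (TH had none), and their summed scaled length was 97.6 to 106 kb in shT2 and 89.0 to 96.9 kb in shNC3. Of those 9, 4 were called higher and 0 lower, where 24.2% and 27.2% of all genes tested were. Among 10 mesenchymal neuroblastoma markers, 9 carried a peak, with a summed length of 17.4 to 18.4 kb in shT2 and 46.5 to 51.2 kb in shNC3. Of those 9, 5 were called lower and 0 higher. COL1A1 alone had a scaled mean of 0.216 kb in shT2 and 14.3 kb in shNC3. VIM had 6935 bp in every sample before scaling, and TWIST1 was not called (limma adjusted p = 0.836). PRRX1, CD44 and YAP1 had no peak in any shT2 sample and so were tested through their shNC3 peaks alone. SNAI2 had no peak in any sample. Whether this difference between the cultures has a part in the results on the 10 genes was not tested.

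The reference sequences on which the results turn come from the RefSeq promoter table of GRCh38.p14, read on the gene's own strand. Each line holds the 250 bases before an annotated start and the first 30 from it. The windows of C9orf72 and OPTN are shown because a peak lay over the first gene's starts in these cells and over neither start of the second. TBK1 is shown for the 2 transcription factor motifs in its window, and VCP and CCNF for the restriction site that both hold.
C9orf72, first start, chr9:27573837-27574116, minus strand: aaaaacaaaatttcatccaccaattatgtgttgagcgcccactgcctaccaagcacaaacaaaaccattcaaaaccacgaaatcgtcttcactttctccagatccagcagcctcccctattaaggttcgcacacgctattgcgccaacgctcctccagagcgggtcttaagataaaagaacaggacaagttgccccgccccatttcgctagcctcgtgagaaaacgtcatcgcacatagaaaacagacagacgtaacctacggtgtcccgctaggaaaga
C9orf72, second start, chr9:27573452-27573731, minus strand: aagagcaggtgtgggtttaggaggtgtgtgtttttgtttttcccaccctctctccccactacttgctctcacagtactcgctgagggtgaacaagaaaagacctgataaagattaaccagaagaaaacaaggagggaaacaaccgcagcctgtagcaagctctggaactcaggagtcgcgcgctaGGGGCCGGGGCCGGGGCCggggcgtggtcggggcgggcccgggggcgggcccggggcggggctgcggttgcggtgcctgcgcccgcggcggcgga
TBK1, chr12:64451870-64452149, plus strand: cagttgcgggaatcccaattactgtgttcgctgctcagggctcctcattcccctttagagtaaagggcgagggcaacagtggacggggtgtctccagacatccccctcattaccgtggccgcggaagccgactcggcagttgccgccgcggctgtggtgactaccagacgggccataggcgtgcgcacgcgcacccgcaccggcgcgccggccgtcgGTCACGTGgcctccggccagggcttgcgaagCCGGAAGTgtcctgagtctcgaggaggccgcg
OPTN, first start, chr10:13099832-13100111, plus strand: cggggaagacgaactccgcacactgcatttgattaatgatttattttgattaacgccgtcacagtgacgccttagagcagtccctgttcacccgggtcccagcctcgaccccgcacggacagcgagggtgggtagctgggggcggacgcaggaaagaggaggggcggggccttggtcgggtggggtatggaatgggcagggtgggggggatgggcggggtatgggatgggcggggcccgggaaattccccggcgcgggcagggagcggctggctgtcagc
VCP, chr9:35072596-35072875, minus strand: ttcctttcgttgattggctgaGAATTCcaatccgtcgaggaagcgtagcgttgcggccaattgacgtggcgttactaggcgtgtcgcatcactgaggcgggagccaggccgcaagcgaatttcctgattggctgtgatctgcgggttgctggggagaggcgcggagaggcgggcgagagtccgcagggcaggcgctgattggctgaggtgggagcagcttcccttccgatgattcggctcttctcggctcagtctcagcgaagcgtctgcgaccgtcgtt
CCNF, chr16:2429197-2429476, plus strand: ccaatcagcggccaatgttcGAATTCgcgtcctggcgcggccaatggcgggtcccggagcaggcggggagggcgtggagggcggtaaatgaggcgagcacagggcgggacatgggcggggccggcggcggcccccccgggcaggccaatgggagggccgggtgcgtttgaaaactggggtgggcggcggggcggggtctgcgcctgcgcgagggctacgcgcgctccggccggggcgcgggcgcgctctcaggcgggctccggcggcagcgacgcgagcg
Capitals mark the run of 3 GGGGCC units in C9orf72, GTCACGTG (the core of the element bound by TFEB) and CCGGAAGT (an ETS-type motif) in TBK1, and GAATTC, the site of EcoRI, in VCP and CCNF. Each motif was searched on both strands of all 34943 promoter windows of 300 bases. The run of 3 GGGGCC units was in 9 of them (0.0258%), GTCACGTG in 2.39%, CCGGAAGT in 4.11% and GAATTC in 5.33%. A match describes letters and is not a measured binding site.

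The 10 genes fell into 3 kinds by how much of them lay under peaks. SQSTM1, VCP, CCNF and GRN were largely covered, with 72.6%, 73.8%, 58.5% and 53.7% of the gene plus flanks under peaks as a mean of the 6 samples, higher than 79.6% to 88.7% of the genes tested. The median gene tested had 13.0%. UBQLN2 had 18.8%, and C9orf72 and TBK1 had short tracts amounting to 4.55% and 3.93%. TMEM106B had a peak in 2 samples, and OPTN and FIG4 had no peak in any list.

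**Figure D1:**
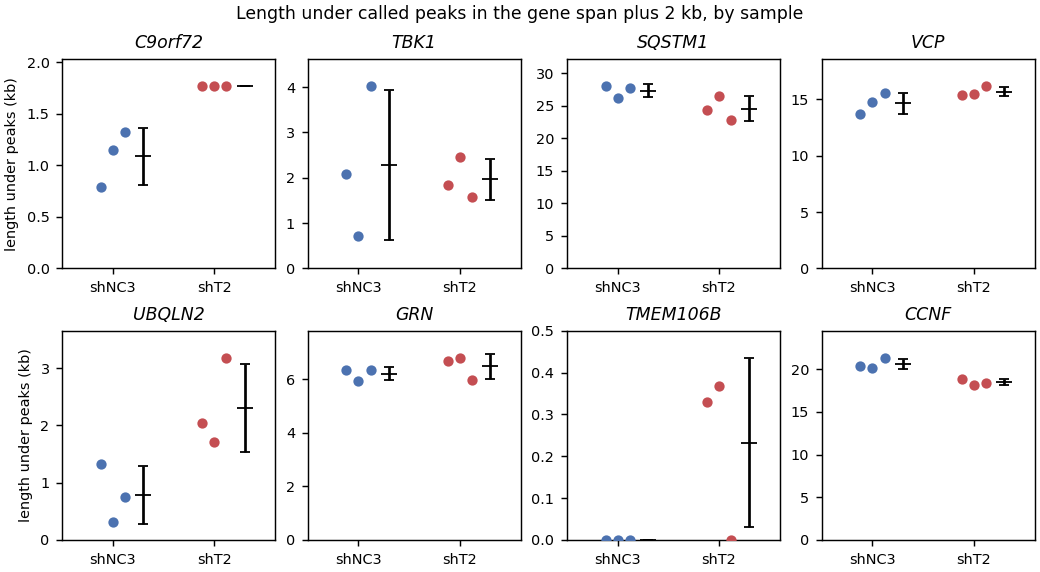
Length under called peaks (kb, before scaling) in the gene span plus 2 kb for the 8 members with a peak, by hairpin; points are the 3 samples of each hairpin, and the line and bar are their mean and SD. The shT2 and shNC3 points do not overlap for C9orf72, UBQLN2 and CCNF, and each panel has its own axis from 0.

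C9orf72 encodes the GTPase-regulating partner of SMCR8 and WDR41 in a complex that acts in autophagy, and an expansion of the GGGGCC run between its alternative first exons is the commonest inherited cause of ALS and FTD. Its only peaks lay over its starts on chromosome 9 (gene span chr9:27546546-27573866, minus strand). In all 3 shT2 lists a single peak of 1764 bp ran from 381 bp before the first base of the gene to 1382 bp after it. In the shNC3 lists the same outer edge 381 bp before the gene was kept, but the tract was shorter or broken: 786 bp ending at 404, 1150 bp ending at 768, and, in replicate 3, 467 bp ending at 85 followed by a second peak of 856 bp from 527 to 1382.

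The covered length over C9orf72 was thus 1764 bp in each shT2 sample and 786, 1150 and 1323 bp in shNC3 replicates 1 to 3, so the groups did not overlap. Scaled, this was 1.68 ± 0.065 kb against 1.16 ± 0.32 kb (SD, n = 3 each). The log2 difference of 0.41 (SE 0.21) did not pass the test (limma, adjusted p = 0.141). Without scaling it did (0.53, limma adjusted p = 0.0473), and with only the peaks that would still be called at the lowest background of the 6 lists it did not (0.46, adjusted p = 0.115). That last setting, called equal background below, drops whole peaks and keeps the others at full width. It does not equalize peak lengths for background. The difference was 0.24 (adjusted p = 0.299) without shNC3 replicate 1, 0.78 (0.0603) with 5-fold peaks and 0.69 (0.0588) with a −log10 q of at least 5. The authors' fold enrichment put the peak over the first start above 83.4% to 91.1% of the peaks in its own list in shT2 and above 61.9% to 78.6% in shNC3.

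The reference run of GGGGCC units, at chr9:27573529-27573546 and 320 to 337 bp after the first base, lay under a peak in 5 of 6 lists. The exception was shNC3 replicate 3, in which it fell in the gap between both peaks. The reference carries 3 units, and the repeat length in these cells was not measured here. Of the 1764 bp under a peak in any list, 467 bp (26.5%) were under a peak in all 6. The first promoter window, with 49% G+C and more C than G on the gene's strand (skew -0.24), was covered over all 300 bases in every sample. The second, with 64.7% G+C and more G than C (skew 0.22), was covered over 300 bases in the 3 shT2 samples and over 270, 300 and 0 bases in shNC3 replicates 1 to 3.

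**Figure D2:**
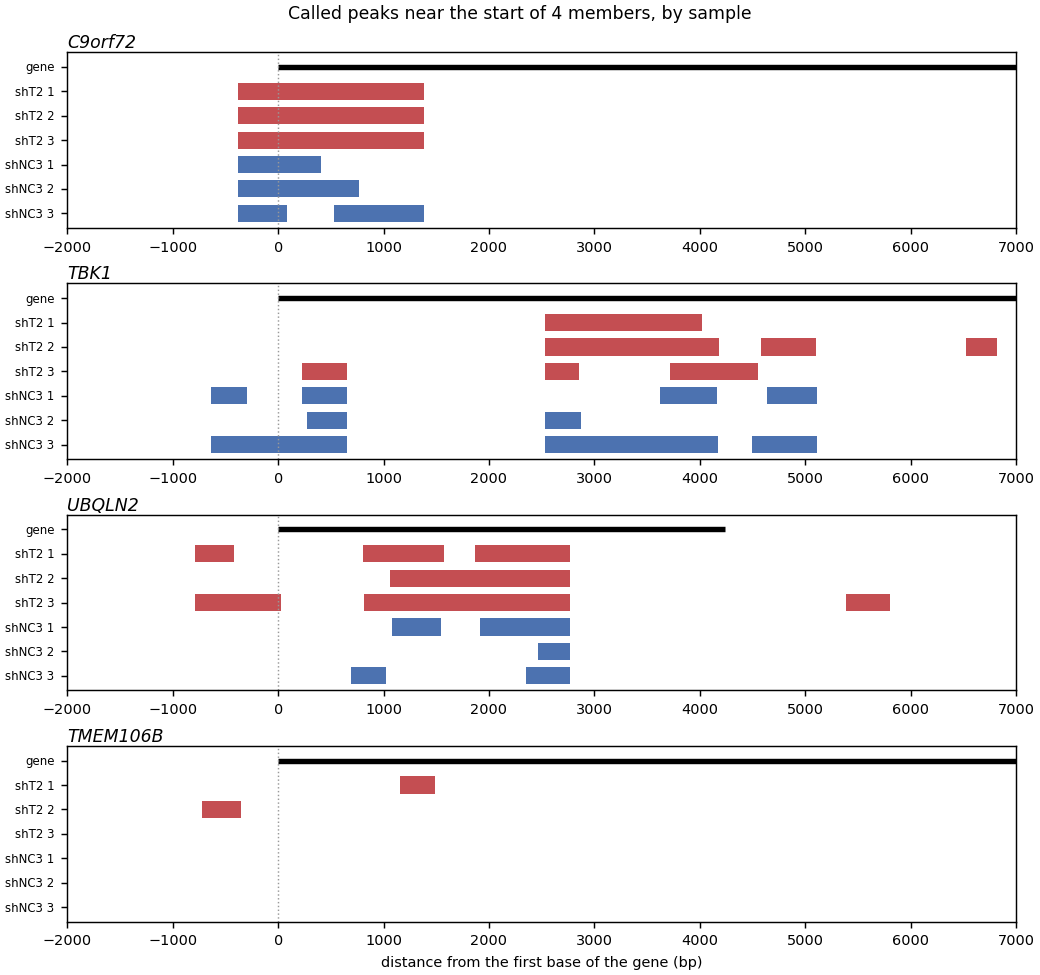
Called peaks from 2 kb before to 7 kb after the first base of C9orf72, TBK1, UBQLN2 and TMEM106B, 1 row for each sample (shT2 red, shNC3 blue) under the gene (black). C9orf72 has 1 unbroken peak of 1764 bp in the 3 shT2 rows and shorter or broken peaks in the shNC3 rows; 1 UBQLN2 peak in each of the 6 rows ends 2768 bp after its first base.

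TBK1, the kinase that phosphorylates optineurin and p62, was one of the least covered members (chr12:64452120-64502114, plus strand). Its covered length was 1845, 2459 and 1582 bp in shT2 and 2093, 723 and 4017 bp in shNC3, with overlapping groups. The difference was -0.11 (SE 0.43, limma adjusted p = 0.837), and no base of TBK1 was under a peak in all 6 lists. Around its start the samples separated: the start window was covered over 0, 0 and 422 bp in shT2 and 767, 381 and 1286 bp in shNC3. The single covered shT2 sample thus lay between the lowest and the middle shNC3 sample in raw length, and below all of them after scaling. The window met the minimum of 3 covered samples through shNC3, so its p-values are not independent of that filter. The difference of -1.09 (SE 0.36) missed the threshold with limma (adjusted p = 0.0587), passed it without shT2 replicate 3 (-1.37, adjusted p = 0.0408), and was -0.10 (adjusted p = 0.831) with 5 kb windows. In 4 lists, 3 of them shNC3, a peak ended 650 bp after the first base. In the interior, a peak began 2534 bp after the first base in 5 lists, all 3 of shT2 among them, and interior coverage differed by 0.30 (SE 0.51, limma adjusted p = 0.652). The first 300-base window, which holds both transcription factor motifs, was under a peak in shNC3 replicate 3 only. The neighbouring gene XPOT, 995 bp away, differed by 0.27 (limma adjusted p = 0.156).

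OPTN, the receptor for ubiquitin-marked mitochondria and aggregates (chr10:13100082-13138308), had no peak in its span or within 2 kb of it in any of the 6 lists. Both of its promoter windows had a high G+C content (66.3% and 75.7%), and no peak. CCDC3, which lies 93 bp from OPTN, had no peak either.

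SQSTM1, which encodes the autophagy receptor p62, had the longest covered length of the members (chr5:179806393-179838078, plus strand). Its peaks amounted to 24357, 26523 and 22737 bp in the shT2 samples, and to 27948, 26133 and 27768 bp in the shNC3 samples, in the order of replicates. In raw length shT2 replicate 2 exceeded shNC3 replicate 2; after scaling the groups did not overlap, at 23.3 ± 0.96 kb and 28.9 ± 0.69 kb (SD, n = 3 each). SQSTM1 fell by 0.31 on the log2 scale (SE 0.045, limma adjusted p = 0.00130). At equal background the call was kept (-0.26, adjusted p = 0.00247), but unscaled lengths did not pass (-0.15, adjusted p = 0.106).

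The lower coverage of SQSTM1 was seen around its first annotated start and through its interior. It was not seen in the 300-base window of the downstream start, 14512 bp after the first, which was fully covered in all 6 samples. At the start, 1993, 2872 and 1249 bp were covered in shT2 and 3553, 2766 and 3555 bp in shNC3, a scaled mean of 1.92 ± 0.69 kb against 3.47 ± 0.31 kb. This fell by 0.75 (SE 0.20, limma adjusted p = 0.0282). The peak that reaches SQSTM1 from the neighbouring gene MGAT4B ran past the first base of SQSTM1 to 666 and 585 bp in shNC3 replicates 1 and 3, and stopped 323 bp before it in shNC3 replicate 2. In shT2 it stopped 725, 134 and 752 bp before the gene. The start call was lost without shT2 replicate 1 (-0.78, adjusted p = 0.0592), shNC3 replicate 1 (-0.73, 0.0724), shNC3 replicate 2 (-0.82, 0.0729) or shNC3 replicate 3 (-0.71, 0.0881), and likewise with 5-fold peaks only (-0.68, 0.0944), unscaled lengths (-0.62, 0.215) and 1 kb windows (-1.04, 0.0519). In the interior, 18816, 20103 and 17940 bp against 20847, 19367 and 20665 bp were covered, which fell by 0.25 (SE 0.033, limma adjusted p = 0.00242; -0.10 and 0.228 without scaling). At the end, 3548 bp were covered in 5 samples and 4000 bp in shNC3 replicate 2, a difference of -0.19 that did not pass (limma adjusted p = 0.0997).

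Several edges of the SQSTM1 peaks recurred to the base. Peaks ended at 7840, 18027 and 22338 bp and began at 19003 and 24617 bp after the first base in all 6 lists. The peak over 9314 to 18027 bp was unbroken in shT2 replicate 2 and in shNC3 replicates 1 (from 9314) and 3 (from 8542), and split into 4 pieces in shT2 replicate 3. A downstream SQSTM1 start, 14512 bp after the first, lay inside that stretch, and its 300-base window was covered in every sample, whereas the first window was covered in 3 samples (117 bases in shT2 replicate 2, and 300 bases in shNC3 replicates 1 and 3). The strongest SQSTM1 peak with its summit in the gene stood above 98.7% to 99.1% of its own list in both groups. Both neighbours that overlap SQSTM1 fell as well: MGAT4B (10.3 ± 0.42 against 12.9 ± 0.43 kb, log2 -0.31, limma adjusted p = 0.00327) and MRNIP (4.82 ± 0.17 against 6.41 ± 0.72 kb, log2 -0.37, limma adjusted p = 0.0143). With unscaled lengths neither passed (adjusted p = 0.0877 and 0.0699), nor did MRNIP with 5-fold peaks (-0.10, adjusted p = 0.679). They share bases and peaks with SQSTM1, so the 3 values are not independent. Over the 6 samples, the genes on other chromosomes whose log2 coverage was most like that of SQSTM1, of 11269 compared, were CTU2, POLD4 and SNAI1 (Pearson r 0.999, 0.999 and 0.998). These are the highest of 11269 values over 6 samples in 2 groups, and no link to SQSTM1 is read from them.

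**Figure D3:**
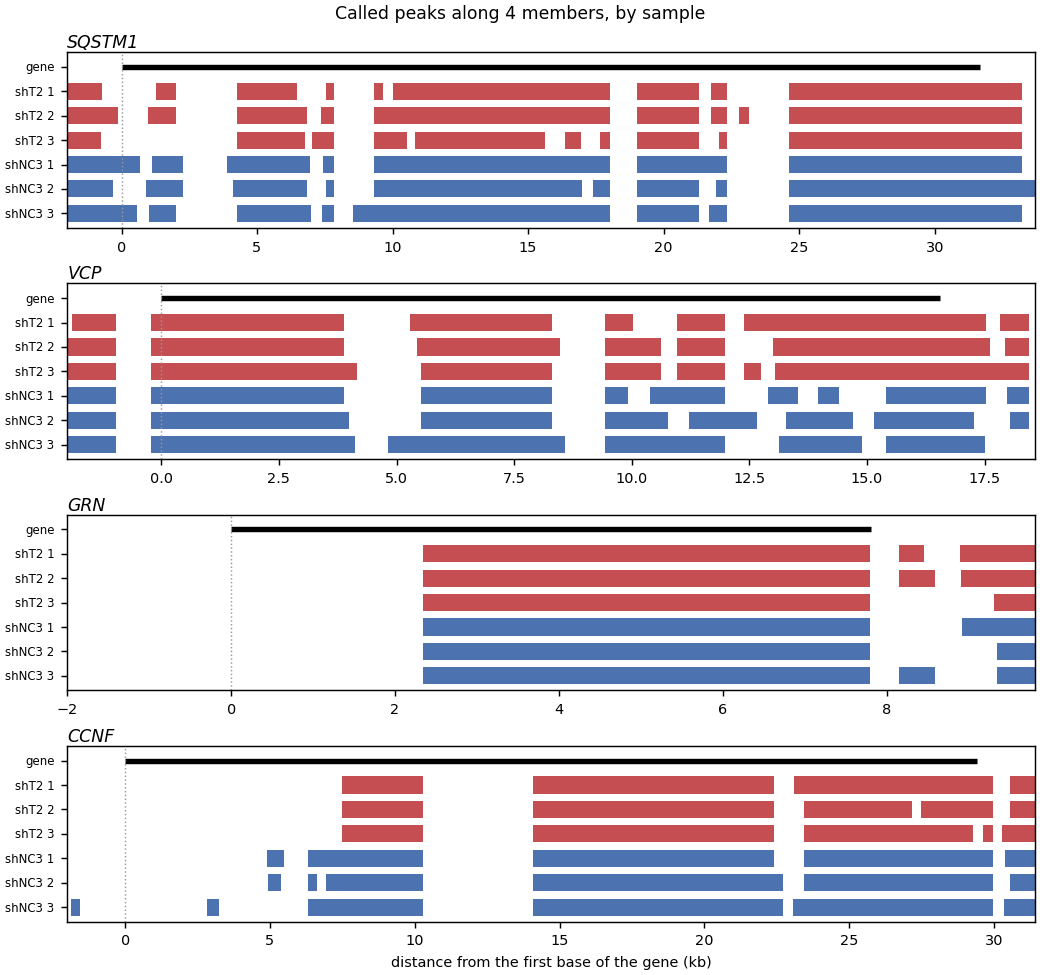
Called peaks from 2 kb before to 2 kb after SQSTM1, VCP, GRN and CCNF (kb from the first base of each gene), 1 row for each sample (shT2 red, shNC3 blue) under the gene (black). GRN carries the same 5459 bp peak in all 6 rows, and the first CCNF peak after 6 kb begins at 7493 bp in the shT2 rows and at 6328 bp in the shNC3 rows.

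VCP, the ATPase that pulls ubiquitin-marked proteins out of membranes and complexes, had nearly the same covered length with both hairpins (chr9:35056064-35072625, minus strand). It was 15400, 15497 and 16165 bp in shT2 and 13684, 14760 and 15547 bp in shNC3, overlapping groups with a difference of -0.06 (SE 0.082, limma adjusted p = 0.582). Its strongest peak began 228 bp before the first base in all 6 lists and ended between 3872 and 4157 bp after it, above 95.8% to 97.7% of the peaks of its own list.

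The end of VCP differed where its whole span did not. The end window was covered over 3584, 3568 and 3881 bp in shT2 and over 2587, 2675 and 2434 bp in shNC3, with no overlap. Scaled, this was 3.50 ± 0.28 kb against 2.72 ± 0.26 kb, and VCP rose there by 0.31 (SE 0.085, limma adjusted p = 0.0305). In the shT2 lists 1 peak ran from 12395, 12996 or 13037 bp to beyond the gene's last base, whereas the same stretch was broken into several peaks in shNC3. A run of 269 bp inside the gene, chr9:35057474-35057742, was under a peak in all 3 shT2 lists and in no shNC3 list. Another of 138 bp, chr9:35061864-35062001, was under a peak in all 3 shNC3 lists and in no shT2 list. With shorter runs included, VCP had 322 bp under all shT2 and no shNC3 lists, and UBQLN2 had 97 bp. How often such runs occur over all genes was not counted. The end call was lost without 5 of the 6 samples: the adjusted p was 0.0887, 0.0508 and 0.0885 without shT2 replicate 1 (0.32), 2 (0.36) or 3 (0.26), and 0.0554 and 0.0839 without shNC3 replicate 1 (0.29) or 3 (0.27). In the last kilobase to either side of the gene's end alone the difference was -0.05 (adjusted p = 0.274), and with 5 kb windows it was 0.20 (adjusted p = 0.172). At the start of VCP, 3260 bp were covered in 5 samples and 3156 bp in shT2 replicate 1, a difference of -0.15 (limma adjusted p = 0.0761) that passed with a −log10 q of at least 5 (-0.19, 0.0288) and with 5 kb windows (-0.40, 0.0128). The interior of VCP differed by -0.15 (limma adjusted p = 0.304), and fell without shNC3 replicate 1 (-0.26, adjusted p = 0.0309). FANCG, 1214 bp from the start of VCP, differed by -0.19 (limma adjusted p = 0.304).

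UBQLN2 is the X-linked ubiquilin that shuttles ubiquitin-marked proteins to the proteasome, in a gene with 1 exon (chrX:56563627-56567868, plus strand). It was covered over 2039, 1710 and 3180 bp in shT2 and over 1320, 308 and 743 bp in shNC3, so every shT2 sample was above every shNC3 sample. Scaled, this was 2.21 ± 0.80 kb against 0.817 ± 0.49 kb (SD, n = 3 each). UBQLN2 rose by 1.07 (SE 0.34, limma adjusted p = 0.0346), and it was the only 1 of the 7 tested members called higher. With only the peaks that would still be called at the lowest background the difference was 1.25 (limma adjusted p = 0.0126). Peaks kept there retain their full width, so that setting does not equalize peak lengths for background.

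All 6 lists had a UBQLN2 peak that ended 2768 bp after its first base; it reached back to 1866, 1059 and 819 bp in shT2 and to 1917, 2461 and 2353 bp in shNC3. A peak starting 787 bp before the gene was called in shT2 replicates 1 and 3 only. Of 3304 bp under any peak, 308 bp (9.32%) were under a peak in all 6 lists. The start window held 1270, 941 and 1994 bp in shT2 and 551, 0 and 327 bp in shNC3, and rose by 1.23 (SE 0.36, limma adjusted p = 0.0374). The span call was lost without shT2 replicate 1 (1.12, adjusted p = 0.0732), shT2 replicate 3 (0.84, 0.114), shNC3 replicate 2 (0.79, 0.0902) or shNC3 replicate 3 (1.08, 0.0713), with a pseudocount of 100 bp (1.43, 0.0517) and without flanks (0.80, 0.0645). The start call was lost without any 1 sample except shNC3 replicate 1 (0.92 to 1.43, adjusted p 0.0508 to 0.108) with 1 kb windows (0.64, adjusted p = 0.284), with unscaled lengths (1.29, 0.0859) and with a pseudocount of 100 bp (2.16, 0.0781).

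CCNF encodes cyclin F, the substrate-binding part of a ubiquitin ligase built on SKP1 and CUL1 (chr16:2429447-2458854, plus strand). Its covered length was 18838, 18154 and 18435 bp in shT2 and 20423, 20120 and 21310 bp in shNC3, groups that did not overlap before or after scaling. Scaled, this was 17.6 ± 0.93 kb against 21.8 ± 1.1 kb (SD, n = 3 each). CCNF fell by 0.31 (SE 0.059, limma adjusted p = 0.00451). The call was kept without scaling at a smaller size (-0.15, adjusted p = 0.0151) and with each sample left out in turn (-0.35 to -0.26, adjusted p 0.00537 to 0.0181).

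Most of the CCNF difference lay in its interior, where 15425, 14815 and 15061 bp were covered in shT2 and 16831, 16707 and 17361 bp in shNC3 (it fell by 0.32, SE 0.060, limma adjusted p = 0.00862; -0.19 and 0.0508 with 5-fold peaks). A CCNF peak that ended 10274 bp after the first base in all 6 lists began at 7493 bp in the 3 shT2 lists, at 6328 bp in shNC3 replicates 1 and 3, and at 6924 bp in shNC3 replicate 2, which had a separate peak from 6328 to 6623 bp. This left 865 bp, in runs of 296 bp (chr16:2435775-2436070) and 569 bp (chr16:2436371-2436939), under a peak in every shNC3 list and in no shT2 list. The lncRNA gene LOC105371050 and the miRNA gene MIR6767 overlap CCNF, and peaks carry no strand, so their hybrids could not be told from those of CCNF. The start window of CCNF held 1 peak, of 314 bp in shNC3 replicate 3, although its promoter window was the richest in G+C of the members (77.3%). At the end, 3413, 3339 and 3374 bp against 3592, 3413 and 3635 bp were covered, and CCNF fell there by 0.20 (SE 0.052, limma adjusted p = 0.0267). This call did not survive unscaled lengths (-0.06, adjusted p = 0.175), 5-fold peaks (-0.17, 0.0565), 1 kb windows (-0.19, 0.0624), equal background (-0.15, adjusted p = 0.0713) or the loss of any 1 sample except shNC3 replicate 1 (-0.22 to -0.16, adjusted p 0.0527 to 0.0808).

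GRN encodes progranulin, which is cut into granulins in the lysosome, and loss of 1 copy causes FTD (chr17:44345302-44353106, plus strand). Its interior was covered by a peak of the same 5459 bp in all 6 lists, from 2336 to 7794 bp after the first base, which stood above 94.3% to 96.9% of its list. No peak lay in its start window in any sample. Over span and flanks, 6671, 6791 and 5956 bp were covered in shT2 and 6348, 5918 and 6345 bp in shNC3, a difference of -0.09 (SE 0.070, limma adjusted p = 0.309), and the groups overlapped. Of the 6807 bp under any GRN peak, 5912 bp (86.9%) were under a peak in all 6 lists, the highest share of the members. GRN also shows what the scaling does: 3469 bp of its interior were covered in every sample, and scaling turned this into 3.29 ± 0.13 kb and 3.68 ± 0.22 kb, a difference of -0.14 (limma adjusted p = 0.193). The samples differed past the gene's end, where FAM171A2 lies 109 bp away. The scaled length over FAM171A2 was 10.1 ± 1.0 kb with shT2 against 8.79 ± 0.044 kb with shNC3 (log2 0.19, limma adjusted p = 0.0747).

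TMEM106B, a lysosomal membrane protein whose common variants modify FTD risk (chr7:12211294-12243367), had 1 peak of 329 bp in shT2 replicate 1 and 1 of 367 bp in shT2 replicate 2, at different places (1159 to 1487 bp after and 718 to 352 bp before its first base). The other 4 samples had none, and the gene was not tested. Both peaks were weak, above 46.2% and 12.7% of the peaks of their lists. FIG4, the lipid phosphatase partner of PIKFYVE and VAC14 on endosomes and lysosomes (chr6:109691296-109825426), had no peak in any list over a window of 138131 bp, and AK9, which lies 94 bp away, had none.

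Across the 7 tested members, 3 were called over the gene span, 1 higher (UBQLN2) and 2 lower (SQSTM1 and CCNF), with 4 not called. Of all 11771 genes 51.3% were called, 24.2% higher and 27.2% lower, so the share among the members was near that of all genes. In scaled length the groups did not overlap in 4 of the 7 (C9orf72, SQSTM1, UBQLN2 and CCNF), against 65.0% of all genes; the raw lengths of SQSTM1 overlapped. The median difference of the tested members was -0.09, that of all genes -0.08, and without scaling the median of all genes was 0.06. At the start 2 of 5 tested members were called (SQSTM1 lower, UBQLN2 higher), where 32.5% of 7303 genes were called, 8.83% higher and 23.6% lower. At the end 2 of 5 were called (VCP higher, CCNF lower), where 33.5% of 5807 genes were, 18.4% higher and 15.1% lower. In the interior 2 of 6 were called (SQSTM1 and CCNF, both lower), where 46.8% of 8855 genes were, 25.2% higher and 21.6% lower. In scaled length the groups did not overlap in 5 of 5 tested members at the start (59.8% of all genes), in 3 of 5 at the end (64.6%) and in 3 of 6 in the interior (66.2%). Scaling alone can separate equal lengths, as in the interior of GRN, and nothing is read from these counts. In raw length only C9orf72 and UBQLN2 at the start, VCP at the end and CCNF in the interior kept their groups apart.

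**Figure D4:**
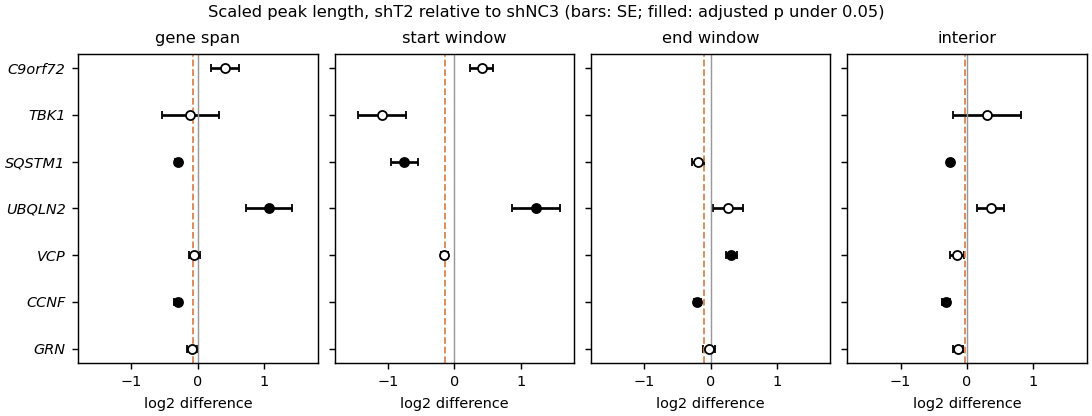
Log2 difference in scaled peak length (shT2 minus shNC3, horizontal axis) for the tested members in the gene span, start window, end window and interior; bars are SE, filled points have an adjusted p under 0.05, and the dashed line is the median of all genes tested (-0.08, -0.14, -0.11 and -0.03). UBQLN2 (1.07) lies to the right and SQSTM1 and CCNF (both -0.31) to the left in the gene span.

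Some peak edges of the members fell on the same base in every list. Of their 201 distinct edges, 160 were found in 1 list only and 15 (7.46%) in all 6, against 10783 of 423346 edges (2.55%) in all 6 for the whole series. An edge can recur so only where all 6 lists have a peak. The largely covered SQSTM1, CCNF, VCP and GRN held 5, 3, 3 and 2 of the 15, and TBK1 and TMEM106B none. The shares are not matched for coverage, and nothing about the members is read from them. The edge 228 bp before VCP, shared by all 6 lists, lies exactly at the EcoRI cut inside the GAATTC shown in capitals in its promoter. The edge 30570 bp after the first base of CCNF, at which the peak over the neighbouring gene TEDC2 began in 3 lists, lies at a HindIII cut in a TEDC2 promoter window. TEDC2 itself differed by -0.17 (limma adjusted p = 0.0578). In the CCNF promoter, which also holds GAATTC, no list had a peak. The second promoter window of SQSTM1 holds AAGCTT, the site of HindIII. Peaks of shNC3 replicates 1 and 3 ran across that site, covering 300 and 220 bases of the window, and no list had an edge at it. Some other member edges lie inside promoter windows and not at a cut of the 5 enzymes. They are 404 bp after the first base of C9orf72 and 25 bp after that of UBQLN2. In SQSTM1 they are 134 bp before and 585 bp after the first base. Each of these edges was in 1 list. Edges outside the promoter windows could not be set against cut sites, because no genome sequence was used here.

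The coincidence was general. In all promoter windows together, 25.3% to 28.1% of peak edges in each list fell on a cut base of the 5 enzymes, which make up 0.100% of those bases. A comparison chosen after the data were seen used 4 other 6-base sites: GGATCC (BamHI), GATATC (EcoRV), CAATTG (MfeI) and GTATAC (BstZ17I). On the position just inside their outer base, whether or not the enzyme cuts there, fell 0 to 0.105% of edges, against 0.0474% of bases. Of the EcoRI sites in promoter windows, 12.8% carried an edge in at least 1 list. The strongest VCP peak thus ends upstream at the position of a cut, and that edge need not be the extent of a hybrid; a further peak, ending 969 bp before the first base, lies upstream of it in all 6 lists.

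**Figure D5:**
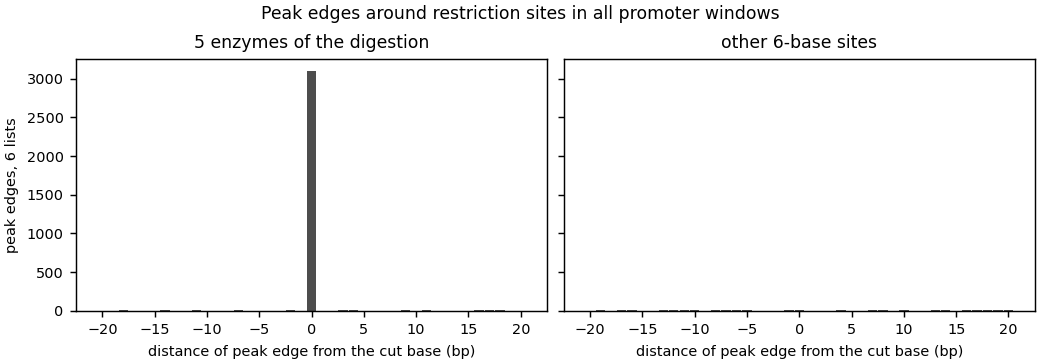
Number of peak edges (6 lists summed) by distance in bp from a fixed position in sites of any promoter window. On the left the position is the cut base of the 5 enzymes of the digestion. On the right it is the position just inside the outer base of other 6-base sites, whether or not an enzyme cuts there. At distance 0 there are 3098 edges on the left and 3 on the right.

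Promoter windows with a peak in all 6 lists (4954 of 34943, 14.2%) had a median G+C of 66.7% and 27 CpG sites; windows with no peak (23721, 67.9%) had 52.7% and 6. The first windows of the members did not sort by G+C in this way. The covered first windows of C9orf72 (49%) and VCP (61.3%) held less G+C than those of OPTN (66.3%), TBK1 (68.3%) and CCNF (77.3%), which had no peak or a peak in 1 list. The first window of SQSTM1 (77.0%) had a peak in 3 lists and that of UBQLN2 (61.3%) in 1, and those of GRN (58.7%), TMEM106B (64.0%) and FIG4 (55.3%) had none. Among later windows, the third of SQSTM1 (73.0%) had a peak in 6 lists and the second of C9orf72 (64.7%) in 5. The second of SQSTM1 (75.0%) had a peak in 2 lists, and the second of OPTN (75.7%) had none.

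Genes that work beside the members were counted in 4 lists, each against the 51.3% called of all genes. Of 26 tested genes of autophagosome formation (33 in the list), 9 rose, 3 fell and 14 did not pass, with a median of 0.17. ATG14, the subunit that sends the autophagy lipid kinase to its membrane, rose from 0.140 ± 0.24 to 3.95 ± 0.64 kb (log2 2.85, limma adjusted p = 0.000296), and WIPI2, which reads the lipid this kinase makes, from 4.13 ± 1.2 to 10.3 ± 0.62 kb (1.25, limma adjusted p = 0.00141). When only peaks enriched 5-fold or more were kept, WIPI2 was not called (0.04, adjusted p = 0.979). ATG14 had 0, 373 and 0 bp in shNC3 replicates 1 to 3. It met the minimum of 3 covered samples through shT2, so its p-value is not independent of that filter. The lipid transfer gene ATG2A fell by 0.47 (limma adjusted p = 0.00149; -0.32 and 0.0682 without scaling), and the protease gene ATG4B rose by 0.46 (limma adjusted p = 0.00154; 0.0632 with 5-fold peaks).

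Among 11 tested genes of selective autophagy (16 in the list), which are the relatives of OPTN and SQSTM1 and the adaptors of TBK1, 3 rose, 2 fell and 6 did not pass (median -0.15). NBR1, the receptor closest to p62, rose by 0.98 (8.62 ± 0.74 against 4.13 ± 0.36 kb, limma adjusted p = 0.000213), where SQSTM1 itself fell. TOLLIP, a ubiquitin-binding receptor, fell by 0.93 (8.50 ± 1.1 against 16.6 ± 1.4 kb, limma adjusted p = 0.000360), and the TBK1 adaptor TBKBP1 fell by 0.32 (limma adjusted p = 0.00173). The ferritin receptor NCOA4 rose by 1.70 (1.79 ± 0.72 against 0.255 ± 0.44 kb, limma adjusted p = 0.0143). That call was lost without shT2 replicate 2 (1.47, adjusted p = 0.0582), without shNC3 replicate 2 (1.48, 0.0536) and without flanks (0.72, 0.370). NCOA4 had 0, 0 and 734 bp in shNC3 replicates 1 to 3. It too met the minimum of 3 covered samples through shT2, so its p-value is not independent of that filter.

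Of 34 tested lysosome genes (38 in the list), 6 rose, 10 fell and 18 did not pass (median -0.13). TFEB, a regulator of lysosomal genes, lacked a peak in every shT2 sample and had 2.36 ± 0.45 kb with shNC3 (limma adjusted p = 0.000146). TFEB met the minimum of 3 covered samples through shNC3 alone, so its p-value is not independent of that filter. Its relative TFE3 fell by 1.46 (2.83 ± 0.45 against 8.61 ± 0.51 kb, limma adjusted p = 0.000105). GLA, the lysosomal alpha-galactosidase, rose by 1.94 (6.45 ± 0.37 against 1.32 ± 0.20 kb, limma adjusted p = 4.80e-05). Of 22 tested partners of the members (24 in the list, PSAP and SORT1 being in the lysosome list too), 6 rose, 2 fell and 14 did not pass (median 0.04). The VCP cofactors UBE4B and FAF2 rose by 2.13 and 0.89 (limma adjusted p = 0.000368 and 0.000818). SKP1, the adaptor that holds cyclin F, rose by 1.08 (limma adjusted p = 0.00152), and NFE2L2, whose inhibitor KEAP1 is bound by p62, by 0.61 (limma adjusted p = 0.00198; 0.32 and 0.211 with 5-fold peaks).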

How the data were processed

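DRIP-seq of 3 shT2 and 3 shNC3 samples was analysed from the deposited peak lists, 1 per sample. Reads were aligned to hg38 with Bowtie2 2.4.4, handled with SAMtools, and peaks were called with MACS2 2.2.6, per the submitters' processing notes. A control treated with RNase H is described, per the labels' protocols; no source used here says which control peak calling had. The values of each peak, deposited by the authors, are a fold enrichment (ratio) and −log10 p and q values; every listed q was at most 0.01. These were used within their own list only. Read counts were not used here.

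Peaks were merged per sample and the covered bp counted per window of RefSeq GRCh38.p14 genes with Python 3.11.15. Start and end windows were fitted for the 15843 of 20037 protein-coding genes whose strand the promoter table gives. Scaled lengths were tested as log2(bp + 500) with limma 3.58.1 (R 4.3.3; eBayes with trend and robust options, and no covariate), over genes with a peak in at least 3 samples, with a threshold of 0.05 on the Benjamini-Hochberg adjusted p. The procedure was tested on simulated data. A peak's background was recovered by solving the Poisson p of its summit together with its fold.

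The members and lists were chosen with earlier results of these data known. Named genes are the 10 members, up to 4 tested genes per list with the smallest p, genes overlapping a member's window, and the 3 genes most like the member with the smallest adjusted p. 1 gene that this rule picks is not reported here. Alternatives were stricter peaks (5-fold, −log10 q of 5), no scaling, pseudocounts of 100 and 2000 bp, other minimums, 1 and 5 kb flanks, a replicate block and leaving out each sample. Equal background and no flanks were added after the data were seen. The equal-background setting drops whole peaks by the p of their summit, keeps peaks with a −log10 p of at least 30 and leaves widths as listed.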

Additional observations from a re-analysis of the deposited data

How the results depend on the processing

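Of the 7 members tested over the gene span, 3 were called under every alternative run except a pseudocount of 100 bp and no flanks, each with 2, and leaving out 1 sample, with 2 to 3. Without scaling the 3 were C9orf72 (0.53), UBQLN2 and CCNF, with SQSTM1 no longer called. In the 3 calls over the span no alternative changed the direction. Members that were not called changed direction more easily. TBK1 over its span had a difference of 0.0041 without scaling and 0.028 without flanks, and -0.58 to 0.33 with 1 sample left out (the last without shNC3 replicate 3). In its interior it had -0.67 with 5-fold peaks, -0.17 with 5 kb windows, and -0.19 (without shNC3 replicate 2) to 0.77 with 1 sample left out. VCP over its span had 0.15 with 5-fold peaks, 0.096 without scaling and 0.0018 at equal background, and in its interior 0.085 with 5-fold peaks. The end of VCP, called in the main setting, had -0.053 with 1 kb windows. GRN had 0.055 over its span without scaling, and at its end 0.0076 with 5-fold peaks, 0.11 without scaling, 0.027 at equal background, 0.00028 without shNC3 replicate 3, and -0.078 to 0.069 (without shT2 replicate 3) over the samples left out. The VCP neighbour FANCG had 0.12 with 5-fold peaks and 0.044 with 5 kb flanks. The cause of these changes was not tested.

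Counts over all genes moved by over 1.5 times with stricter peaks, other windows and, at the start, without scaling. With 5-fold peaks, 3801 genes were called over the span (main 6042), 1390 at the start (main 2370), 1063 at the end (main 1943) and 2429 in the interior (main 4146). At the start, 1463 were called without scaling and 1494 with 1 kb windows; at the end, 3030 with a −log10 q of at least 5, 951 with 1 kb and 3827 with 5 kb windows. Leaving out 1 sample gave 4984 to 5724, 1752 to 2005, 1336 to 2838 and 3308 to 3779 for span, start, end and interior. The cause was not tested. Scaling moved the balance of directions: the share of called genes that were higher in shT2 was 47.1% over the span and 60.9% without scaling, 27.2% and 39.8% at the start, 55.0% and 72.5% at the end (35.8% with a −log10 q of at least 5, and 39.0% without shNC3 replicate 1), and 53.8% and 65.2% in the interior.

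The replicate numbers did not pair the samples (correlations of deviations for equal numbers -0.023, -0.064 and -0.008). With the replicate block, 5691, 2157, 1811 and 3712 genes were called over span, start, end and interior, and 3 members over the span. At the start of TBK1 the block gave an adjusted p of 0.0264, at the end of VCP 0.0558 and at the end of CCNF 0.0961, so the first passed and the last 2 lost the threshold.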
